A study of Mus musculus with 2 samples.

Results

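The genes described here are 10 negative regulators and receptor turnover genes of the Wnt/β-catenin pathway: Axin2, Nkd1, Nkd2, Notum, Dkk1, Apcdd1, Znrf3, Rnf43, Lgr4 and Lgr5. They were chosen by name, and each had 1 entry among the 30774 gene identifiers of the array. RNA came from B6 (C57BL/6) mouse embryonic stem cells (mESCs) in serum-containing medium, labelled as inner cell mass of an E3.5 embryo. The reference cells had received LIF, the cytokine that activates Stat3, and the treated cells had received LIF/CHIR99021, hereafter LIF plus CHIR. The treatment lasted 12 h. The dose of CHIR on the arrays is not given in the sources used here, and the shared growth note of both samples names LIF/CHIR99021. The sample labels call the cells B6 mESCs, whereas the study's flow chart names 46C mESCs, another line. Each condition had 1 Illumina beadchip, so 2 arrays were compared and no difference between the arrays has a replicate array, an error or a p-value.

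In cells without a Wnt signal, a destruction complex built on Axin and Apc lets GSK3 mark β-catenin for degradation. Wnt ligands act through Frizzled and Lrp receptors to stop this, β-catenin enters the nucleus, and genes bound by TCF factors are transcribed. CHIR inhibits GSK3 directly and so bypasses the ligand and its receptors. Many genes switched on by the pathway encode its own inhibitors, a negative feedback loop. In mESCs the pathway supports self-renewal, and CHIR is a component of the 2i medium.

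Of the 4 genes that were detected, Axin2 was the 1 that differed by 1.5-fold or more between the arrays, and its signal was 3.75-fold higher in LIF plus CHIR. Notum, Apcdd1 and Nkd2 were detected on both arrays and had nearly the same signal on each. Nkd1, Dkk1, Znrf3, Rnf43, Lgr4 and Lgr5 were detected on neither array. A gene counted as detected at a detection p-value under 0.01, the share of negative control beads at least as bright as its signal. For identifiers measured by several probes the p-value is a combined one. By this rule 4 of the 10 genes were detected, all on both arrays, 1 passed the limit of 1.5-fold upwards and 0 passed it downwards. Over all 9615 identifiers detected on at least 1 array, 3.0% passed 1.5-fold upwards with CHIR and 3.16% passed it downwards. The median log2 ratio of the 4 detected genes was 0.05, and that of all detected identifiers was -0.00.

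**Figure D1:**
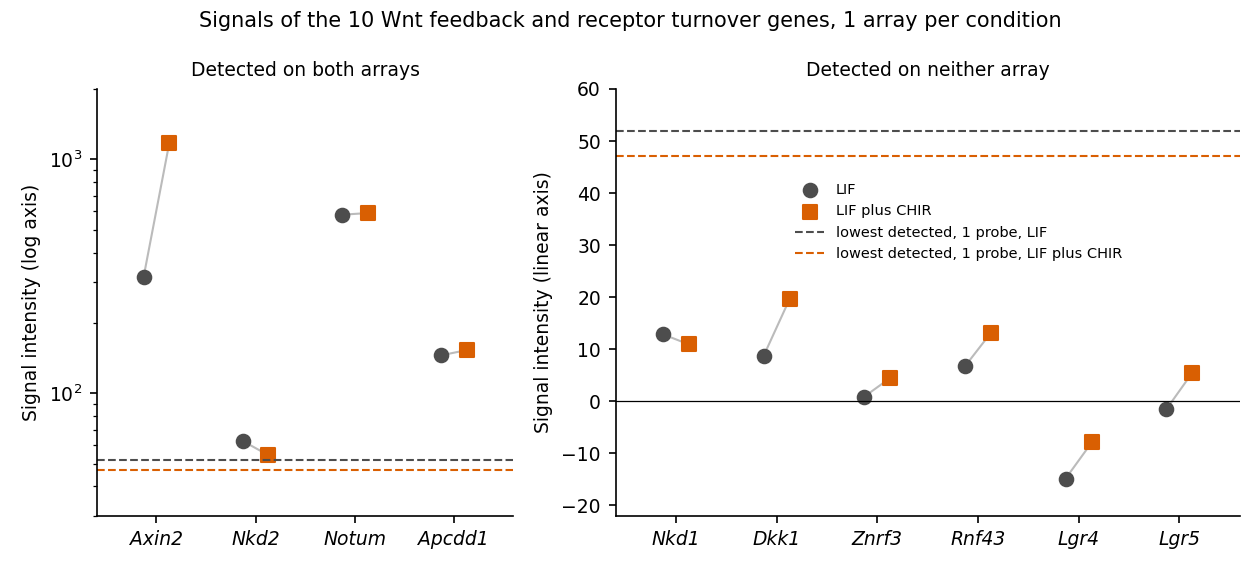
Signal intensity of the 10 genes on the LIF array (circles) and the LIF plus CHIR array (squares), with 1 array per condition and no error bars. The left panel has a log axis and the right a linear axis, and dashed lines mark the dimmest detected 1-probe signals (51.9 for LIF, 47.1 for LIF plus CHIR). Axin2 is the gene whose points lie far apart, and the 6 genes on the right lie below both lines. The lines do not apply to Nkd1, which appears to be measured by several probes (dimmest detected signals of that kind 15.1 for LIF and 14.8 for LIF plus CHIR).

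Signals of the whole arrays were nearly equal in distribution, with a median of 10.5 in LIF and 10.4 with CHIR, so that ratios describe change relative to the other genes of an array. Of 10 mESC marker genes listed for a check of the cell type, 8 were detected on both arrays, and none of these 8 passed 1.5-fold. Among them, Pou5f1 had a signal of 12346 in LIF and 11309 with CHIR. Klf4 (965.7 and 1444, 1.495-fold) and Nanog (1660 and 2429, 1.46-fold) lay just under the limit upwards, and Utf1 (5585 and 3972) was 1.41-fold lower with CHIR. Tdgf1 was not detected, and Sox2 (441.2 and 400.2) missed the limit on its combined p-value (0.050 and 0.28). None of 8 fibroblast genes was detected on either array, with summed signals of 231.5 and 231.4, nearly all from Thy1 (222.3 and 225.3), which also missed the limit on a combined p-value. Of 6 mesendoderm genes, none was detected in LIF, while T and Gsc were detected in LIF plus CHIR. The summed signal of the list was -9.67 and 468.4, the latter mostly from T (394.5). Of 6 primitive endoderm genes Sox7 was detected on both arrays, of 6 neural genes Nes only in LIF plus CHIR, and of 6 trophoblast genes Krt7 and Krt8 on both arrays and Cdx2 only in LIF plus CHIR. The summed signals of these lists were 131.1 and 117.2, 17.0 and 64.6, and 475.4 and 524.8, and undetected genes count in them. In the neural list, Sox1, detected on neither array, gave -7.23 and 28.9, and Nes gave 27.7 and 44.8. Most of the trophoblast sums came from Krt8 (413.8 and 370.9). The part of the T, Gsc, Nes and Cdx2 signals in the result for Axin2 was not tested. In a bulk RNA sample, more RNA per cell and more cells that express a gene cannot be told apart.

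Axin2 encodes a scaffold of the destruction complex that limits β-catenin, and it is a widely used feedback target of the pathway. The array annotation places it on chromosome 11 in band 11qE1 (Entrez gene 12006). Its signal was 314.1 in LIF against 1178 in LIF plus CHIR. On both arrays it was brighter than all 936 negative controls (detection p-values of 0). The ratio was 3.75 (log2 ratio 1.91). Among 8580 identifiers detected on both arrays, Axin2 had the 3rd highest ratio (6th of 10271 at a detection p-value under 0.05), after Cdx1 (12.8-fold, signals of 75.2 and 963.2) and Pglyrp1 (5.0-fold, 133.1 and 665.3). Next below it were Pgc (3.36-fold), Fzd10 (3.29-fold) and Slc6a7 (3.20-fold).

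The brightness of Axin2 bears on how this ratio compares with other genes, because ratios of signals under 1000 scattered more. Where the brighter signal of an identifier was 1000 or more, 1.19% of 3269 detected identifiers passed 1.5-fold upwards and 1.01% downwards. The log2 ratios of the 3211 of them detected on both arrays ran from -0.42 to 0.42 between the 2.5th and the 97.5th percentile. Axin2 falls in this range of brightness only through its LIF plus CHIR signal, since its LIF signal was 314.1. The 4301 identifiers detected on both arrays with a brighter signal from 100 to 1000 ran from -0.69 to 0.67. Both ranges go by the brighter array, so Axin2 is not a member of the dimmer range. The log2 ratio of Axin2, 1.91, was above the upper ends of both, which is a description and not a test. Normexp background correction fitted on all identifiers, which estimated a background SD of 588.4 in LIF and 585.8 in LIF plus CHIR, lowered the log2 ratio of Axin2 to 0.94 and its place to 15th. Fitted on identifiers with 1 probe, the SD was 15.4 on each array.

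**Figure D2:**
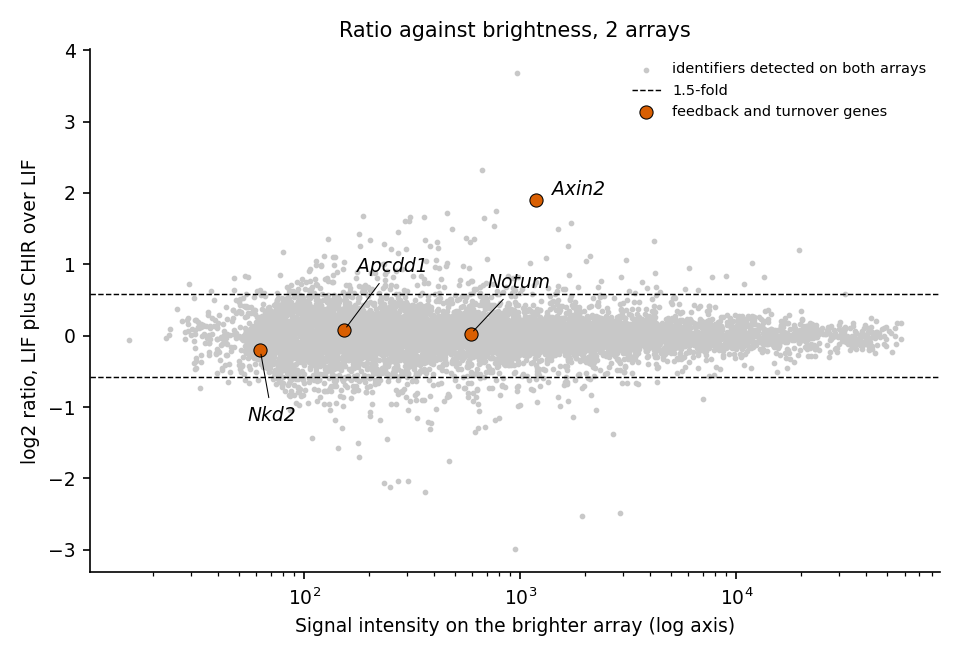
Log2 ratio of LIF plus CHIR over LIF (vertical axis) against the signal on the brighter array (horizontal log axis) for the 8580 identifiers detected on both arrays (grey) and the 4 detected feedback genes (orange), with dashed lines at 1.5-fold. Axin2, at 1.91, is placed along the horizontal axis by its LIF plus CHIR signal of 1178, and Notum, Apcdd1 and Nkd2 lie between the dashed lines.

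Nkd1 and Nkd2 encode Naked cuticle proteins, which bind Dishevelled, the adaptor inside the cell that passes on the Wnt signal. Nkd2, on chromosome 13 in band 13qC1, gave 62.6 in LIF and 54.4 with CHIR, with detection p-values of 0.0053 and 0.0064. It lay close to background, since 5 of the 936 negative controls in LIF and 6 in LIF plus CHIR were at least as bright. Its signal was 1.15-fold lower in LIF plus CHIR (log2 ratio -0.20). For identifiers with a brighter signal under 100 that were detected on both arrays, the range from the 2.5th to the 97.5th percentile was -0.64 to 0.56, and Nkd2 lay within it. In this range of brightness 4.55% of 1825 detected identifiers passed 1.5-fold upwards and 5.75% downwards. Nkd1, on chromosome 8 in band 8qC3, gave 12.9 in LIF and 10.9 with CHIR, with detection p-values of 0.097 and 0.10. Nkd1 appears to be measured by several probes, so these p-values are combined ones. It was not detected on either array, so it has no fold.

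Notum and Dkk1 are secreted inhibitors. Notum removes a lipid that Wnt ligands need for activity, and Dkk1 blocks the Lrp coreceptors. Notum, on chromosome 11 in band 11qE2, gave 580.1 in LIF and 589.7 with CHIR. It was brighter than every negative control on both arrays (detection p-values of 0), and its log2 ratio was 0.02. Notum was thus clear of background on both arrays, at nearly the same signal. Dkk1 gave 8.68 in LIF and 19.7 with CHIR (detection p-values of 0.22 and 0.12). Of the 936 controls, 203 in LIF and 115 with CHIR were at least as bright, so Dkk1 was not detected. The array annotation gives Dkk1 no Entrez gene number, chromosome or band, and its entry comes from a source other than RefSeq (MEEBO).

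Apcdd1 is a membrane protein that binds Wnt and Lrp and inhibits signaling. It gave 145.3 in LIF and 153.1 with CHIR. Its detection p-value was 0 on both arrays (brighter than all negative controls if measured by 1 probe). The log2 ratio was 0.07. Among identifiers with a brighter signal from 100 to 1000, the range of brightness of Notum and Apcdd1, 3.67% of 4521 passed 1.5-fold upwards and 3.67% downwards. The log2 ratios of those detected on both arrays ran from -0.69 to 0.67 between the 2.5th and the 97.5th percentile.

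The turnover genes act at the cell surface. Znrf3 and Rnf43 are membrane E3 ubiquitin ligases that remove Frizzled receptors, and Lgr4 and Lgr5 bind R-spondins, ligands that take these ligases off the membrane and so prolong Wnt signaling. None of these genes was detected on either array. Znrf3 gave 0.86 in LIF and 4.50 with CHIR (detection p-values of 0.33 and 0.28), and Rnf43 gave 6.69 and 13.2 (0.24 and 0.17). The values below 0 come from background subtraction. Lgr4 gave -14.9 in LIF and -7.93 with CHIR (0.92 and 0.63), and Lgr5 gave -1.58 and 5.50 (0.39 and 0.26). For Lgr4, 858 of the 936 negative controls in LIF and 592 with CHIR were at least as bright. For the other genes of this group the number ran from 220 (Rnf43) to 364 (Lgr5) in LIF and from 159 (Rnf43) to 263 (Znrf3) with CHIR.

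Of the 6 undetected genes, 5 had a higher signal in LIF plus CHIR and Nkd1 a lower one. Among all 21159 identifiers detected on neither array, 49.8% had the higher signal in LIF plus CHIR. The differences of the 5 genes were small, from 3.63 for Znrf3 to 11 signal units for Dkk1. For 15569 undetected identifiers with 1 probe the difference ran from -16.6 to 15.7 between the 2.5th and the 97.5th percentile, so each of the 5 lay inside the scatter of undetected signals. These signals are below what the arrays resolve, and neither a change nor its absence can be read from them.

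The start regions of the feedback genes were searched for CTTTGA and CTTTGT, core letters recognised by TCF factors, on both strands. RefSeq windows of build GRCm38.p6, from 250 bases before to 50 after a transcript start, were given for 6 of the 10 genes (7 windows, since Rnf43 has 2). Notum, Apcdd1, Znrf3 and Lgr5 have no entry. Dkk1 held 3 matches, and Axin2, Nkd1, Nkd2, Rnf43 and Lgr4 held none. The Dkk1 matches begin 174, 117 and 98 bases before the start and do not overlap, the first of them CTTTGA on the opposite strand. Of all 32851 windows, 16% held CTTTGA, 18.7% held CTTTGT and 31.2% held either. Counted by gene, 34.5% of 27025 genes held either. The 250 bases before the start are shown for Axin2, the gene that differed, and for Dkk1, the gene with matches, with the matched letters in capitals. The Axin2 stretch is chr11:108920099-108920348 on the plus strand, and that of Dkk1 is chr19:30549497-30549746 on the minus strand.
Axin2: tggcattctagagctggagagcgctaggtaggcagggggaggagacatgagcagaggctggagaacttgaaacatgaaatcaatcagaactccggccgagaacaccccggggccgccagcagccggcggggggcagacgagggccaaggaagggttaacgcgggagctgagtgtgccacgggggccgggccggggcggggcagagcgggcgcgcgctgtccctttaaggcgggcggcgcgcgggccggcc
Dkk1: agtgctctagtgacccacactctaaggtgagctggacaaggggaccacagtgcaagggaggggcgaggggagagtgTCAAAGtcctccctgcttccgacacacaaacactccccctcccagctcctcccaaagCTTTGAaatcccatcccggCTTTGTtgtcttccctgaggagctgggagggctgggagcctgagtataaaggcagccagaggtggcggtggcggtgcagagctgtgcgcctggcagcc
A match describes letters and not a bound site, and the absence of one holds for these windows alone.

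Other genes of the pathway were described from lists written for this purpose with earlier results of these data known. The lists held 61 genes in all. Of these, 23 were detected on at least 1 array, 6 passed 1.5-fold upwards and 1 downwards, or 2 and 0 under the normexp correction fitted on all identifiers. Over all detected identifiers, 3.0% passed it upwards and 3.16% downwards. Of the 6, 4 came from the list of other Wnt targets. Since earlier results were known when the lists were written, the count is not an independent result. The median log2 ratio over the 21 list genes with a ratio was 0.12. A gene detected on 1 array only was set against the dimmest detected signal of its kind on the other array, which makes its ratio a lower limit. Tcf7, Fzd3 and Btrc, which appear to be measured by several probes, were brighter than that on the other array without being detected, and their ratios are plain ratios that bound nothing.

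**Figure D3:**
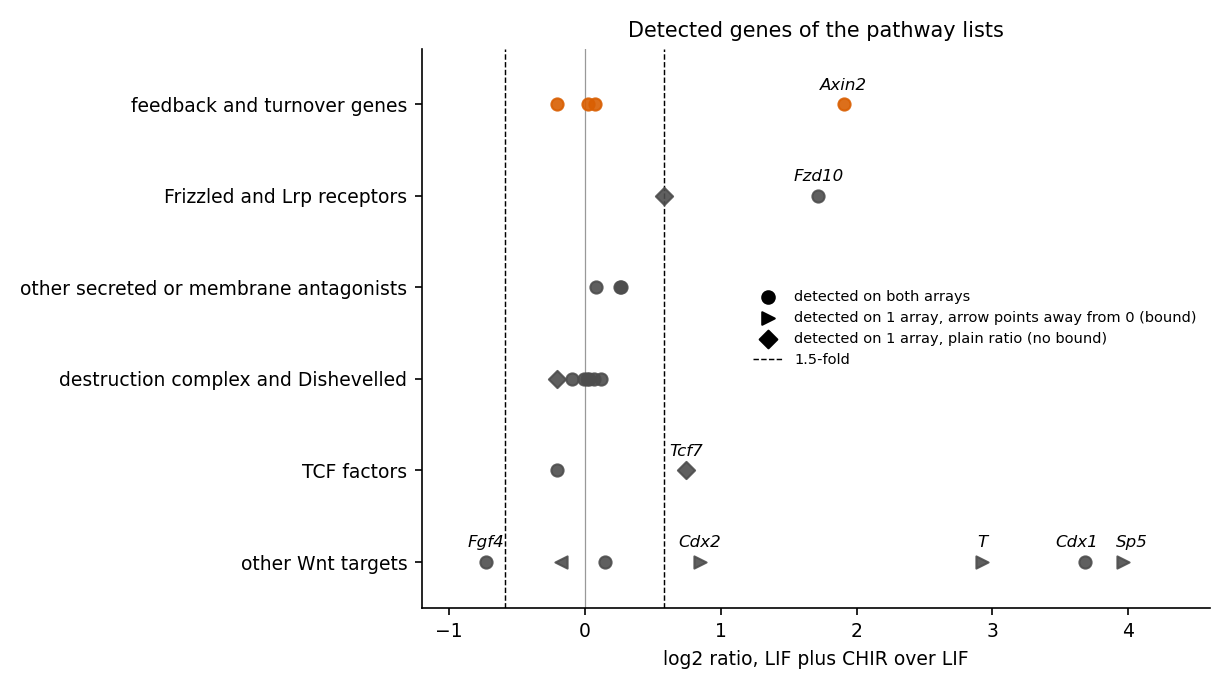
Log2 ratio of LIF plus CHIR over LIF for each detected gene of the feedback and turnover genes (orange) and of the other pathway lists (grey). Circles were detected on both arrays, arrowheads on 1 array with a ratio that is a bound, diamonds on 1 array with a plain ratio, and dashed lines mark 1.5-fold. Axin2, Fzd10, Tcf7, Cdx2, T, Cdx1 and Sp5 lie above 1.5-fold and Fgf4 below it.

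At the receptor level, Fzd10, which encodes a Frizzled receptor, gave 139.0 in LIF and 457.5 with CHIR and was detected on both arrays, a ratio of 3.29. Under the normexp correction fitted on all identifiers its log2 ratio fell from 1.72 to 0.30. Of 12 Frizzled and Lrp genes, Fzd10 and Fzd3 were the 2 detected, and the others have no ratio. Fzd10 passed 1.5-fold upwards, as did 3.0% of all detected identifiers. Fzd3 (28.6 and 42.7, detected in LIF plus CHIR only) lay just under the limit at 1.495-fold. Fzd5 had signals of 1328 and 1398 and Fzd7 of 1580 and 1115, but both appear to be measured by several probes and missed the detection limit, with p-values of 0.045 and 0.035 for Fzd5 and 0.29 and 0.33 for Fzd7. R-spondins are the ligands of Lgr4 and Lgr5. Rspo1 (24.0 and 50.1) and Rspo3 (11.7 and 50.5) were detected in LIF plus CHIR only, where 9 and 8 of the 936 controls were at least as bright, and no fold could be given because both signals lay under the dimmest detected 1-probe signal of the LIF array (51.9). Fzd3, Rspo1 and Rspo3 were named after their values were seen.

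The next groups are read against the 3.0% and 3.16% of all detected identifiers that passed 1.5-fold upwards and downwards, so that few or no calls among so few genes say nothing particular to them. Of 16 other secreted or membrane antagonists 3 were detected and none passed 1.5-fold. Sfrp1, a secreted Wnt-binding protein, gave 1094 in LIF and 1316 with CHIR (1.20-fold). Of 14 genes of the destruction complex and Dishevelled group 7 were detected and none passed 1.5-fold, with a median log2 ratio of 0.01. Axin1, the constitutive relative of Axin2, had signals of 1617 and 1652 (log2 ratio 0.03), and Ctnnbip1, an inhibitor of β-catenin binding to TCF, had 1004 and 1051 (0.07). Axin1 and Axin2 thus had unequal ratios on the same arrays.

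Among the 4 TCF factors, Tcf7 (27.5 and 46.0) was detected in LIF plus CHIR only, with a plain ratio of 1.67. Its log2 ratio of 0.74 dropped to 0.45, under the limit, with normexp fitted on identifiers with 1 probe. Tcf7l1, the repressor listed on the array as Tcf3, had signals of 2798 and 2424 (log2 ratio -0.21). In mESCs lacking Tcf3, the study reported by qRT-PCR that CHIR did not change Tcf7, which it names Tcf1. Those cells differ from the cells of the arrays. Of 10 other genes listed as Wnt targets, a list written with earlier results known, 7 were detected, 4 were higher and 1 lower. Sp5 was at least 15.6-fold higher (48.8 and 809.5), T at least 7.60-fold (8.05 and 394.5), Cdx1 12.8-fold and Cdx2 at least 1.80-fold (23.6 and 93.5). The study also reported induction of Sp5 by CHIR from qRT-PCR with biological replicates. Ccnd1, a cyclin, had signals of 3923 and 4347 (1.11-fold). Fgf4, an FGF ligand of mESCs, had 712.7 and 430.1, a 1.66-fold lower signal with CHIR, or a log2 ratio of -0.29 in place of -0.73 under the normexp correction fitted on all identifiers. T and Cdx2 also belong to the mesendoderm and trophoblast lists described above.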

How the data were processed

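Total RNA of mESCs was labelled with biotin and hybridized to Illumina mouse beadchips, 1 per condition. The authors deposited a signal intensity, summarised per gene identifier after background subtraction, and a detection p-value. The normalization, software and genome build are not given in the sources used here. The shorter of the deposited tables, called normalized, holds 11702 identifiers, and 0 of the shared values differ between the tables. Samples were assigned to conditions from their titles.

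Ratios were computed with Python 3.11.15, numpy 2.4.6 and pandas 2.3.3 and plotted with matplotlib 3.10.9. Of the detection p-values 69.7% were multiples of 1 over 936 (within 0.002 controls), taken as the number of negative controls. By this sign 16773 identifiers were treated as measured by 1 probe and 7419 by several, while 6582 with a p-value of 0 on both arrays, Axin2, Notum and Apcdd1 among them, could be either. A signal under the dimmest detected one of its class on an array (1 probe, 51.9 in LIF and 47.1 in LIF plus CHIR; several probes, 15.1 and 14.8) was raised to it, and a brighter signal was kept. No fold was given where this turned the direction. The 1.5-fold limit is that of the study. Signals of different probes were not compared as levels. List genes were matched by Entrez gene number through RefSeq (82 entries) or by symbol (21). The calculation was tested on simulated arrays with known changes in bright identifiers only. That test did not cover combined p-values of several probes or ratios given as bounds. Protein sequences were not used here.

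The 10 genes, the lists and the rules were chosen with earlier results of these data known. The rule for named genes was all 10 genes, up to 6 genes a list past 1.5-fold or with a signal of 1000 or more, and the 3 identifiers above and below Axin2 by ratio, of which 2 exist above it. Alternatives were other minimum signals, quantile normalization, scaling to equal medians, normexp correction (limma 3.58.1 in R 4.3.3, offset 16), the shorter table, other detection rules and a 2-fold limit.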

Additional observations from a re-analysis of the deposited data

How the results depend on the processing

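Under each of 11 alternatives, 10 planned and 1 (detection by signal) added after the data were seen, the 10 feedback and turnover genes gave 4 detected, 1 higher and 0 lower. The number detected could change only under the other detection rules, because the remaining alternatives kept the same detection p-values and limit. The ratios of the 4 detected genes changed only under quantile normalization, scaling and the normexp corrections. Axin2 had log2 ratios between 0.94 and 1.94, Notum between 0.01 and 0.02, Apcdd1 between 0.01 and 0.08 and Nkd2 between -0.22 and -0.01. Over all identifiers, 288 were higher and 304 lower. Normexp correction fitted on all identifiers gave 55 and 49, a detection p-value under 0.05 gave 479 and 519, and the 2-fold limit gave 78 and 54. With 1 minimum signal per array the numbers were 395 and 387, and with no minimum signal 395 and 392. Of the pathway list genes, 6 were higher and 1 lower. Normexp fitted on all identifiers gave 2 and 0, detection on both arrays gave 2 higher, and the 2-fold limit gave 4 higher and 0 lower. The number higher rose to 8 with 1 minimum signal per array, with no minimum signal and at a detection p-value under 0.05. Quantile normalization gave 7 higher. Normexp fitted on identifiers with 1 probe gave 5 higher, with Tcf7 at a log2 ratio of 0.45 and no longer past 1.5-fold, and detection by signal gave 5, with no ratio for Tcf7. Normexp fitted on all identifiers lowered Cdx1 to a log2 ratio of 0.90, Sp5 to 0.75, T to 0.31, Cdx2 to 0.04 and Tcf7 to 0.02, and the cause was not tested. Without a minimum signal T had 5.62 and Cdx2 had 1.98. Normexp was run with quantile normalization. No paired analysis was possible because neither condition had more than 1 array. The number of arrays limits precision.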
